A study of Drosophila melanogaster with 6 samples.

Results

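The genes described here are 5 Toll-family receptors (Toll-6, Toll-7, Tollo, 18w and Tl) and 2 neurotrophin ligands (NT1, also called spz2, and spz5). They were found by their FlyBase identifiers, and all 7 are among the 13727 genes of the authors' deposited table. The data are RNA-seq of L3 neurons, a neuron type of the lamina in the fly optic lobe, sorted by flow cytometry from pupae 24 h after puparium formation. The series holds 3 samples labelled WT, titled FRT40, and 3 dFezf1 samples. The latter carry a mutant allele of the transcription factor gene dFezf, also called earmuff (erm). The titles are dated 28 to 30 November for WT and 12 to 14 December for dFezf1, so title date and genotype cannot be told apart. The labels do not state how many animals went into a sample, nor the lesion of the allele. Columns of values per library carry codes that match no sample label, so the values below are the authors' group means, in an abundance unit they do not name, and their fold changes with standard errors (SE).

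Toll receptors are single-pass membrane proteins with leucine-rich repeats outside the cell. Tl, the founding member, binds processed Spatzle and signals through Myd88, Tube and Pelle to the NF-kappaB factors Dorsal and Dif in embryonic patterning and immunity. NT1 and spz5 encode relatives of Spatzle known as Drosophila neurotrophins, and Toll-7 and Toll-6 are their receptors in the nervous system, where they act in neuron survival, axon targeting and synapse structure. 18w, Toll-6 and Tollo are also known for orienting cell rearrangement in the embryonic epithelium.

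L3 cells of dFezf1 samples differed from those of WT in 2 of the 5 receptors, in opposite directions. Toll-7 fell and Tl rose, each called at an adjusted p below 0.05, the threshold used for every call here. Of the 9387 genes tested in the authors' deposited table, 640 passed (6.82%), with 4.33% higher and 2.49% lower in dFezf1. 18w, Toll-6 and Tollo did not pass. Both ligands had a mean normalized count of 0 over all libraries, so neither was tested. All 7 genes carry the authors' cell surface category, in which 107 of 644 tested genes passed (16.6%), the second share against which 2 of 5 receptors is to be read. In bulk RNA, fewer cells of a type and less RNA per cell cannot be told apart.

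**Figure D1:**
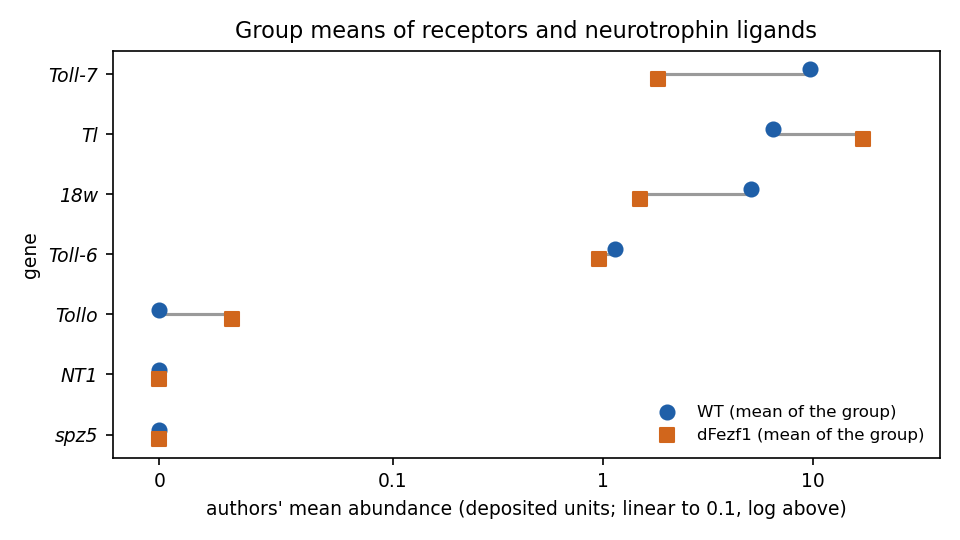
The plot gives the authors' group mean abundance of each receptor and ligand gene in WT (circles) and dFezf1 (squares), on an axis that is linear up to 0.1 and logarithmic above; the deposited means carry no error. Toll-7 moves from 9.61 to 1.83 and Tl from 6.46 to 17.2, while NT1 and spz5 lie at 0 in both groups.

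Toll-7, the receptor reported to bind NT1, had the greatest group mean of the 5 receptors in WT L3 neurons. The authors' deposited table gives it a group mean of 9.61 in WT and of 1.83 in dFezf1, which differ 5.25 times. The unit of these means behaves as scaled by gene length, and no error is attached to them. The log2 fold change, which comes from normalized counts and not from these means, was -1.90 ± 0.50 (SE, 3 against 3 samples) in the authors' deposited table. Its 95% interval ran from -2.87 to -0.92, and the adjusted p was 0.00303 in the authors' deposited table. In WT, 85.0% of all genes in the table had a lower group mean than Toll-7, and in dFezf1 64.3% had. Of the 234 genes called lower in the authors' deposited table, 136 have a 95% interval that excludes 0, and 89 of these fell further than Toll-7. The filter acts on the fold change being ranked and favours large falls, so it does not place Toll-7 among all 234.

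Tl moved the other way. The authors' group means were 6.46 (WT) and 17.2 (dFezf1), a ratio of 2.66. The log2 fold change was 1.35 ± 0.39 (SE), with a 95% interval from 0.58 to 2.11 and an adjusted p (authors' deposited table) of 0.0109. Tl was therefore called at the threshold of 0.05 but not at 0.01. It was the receptor with the greatest mean normalized count, 3404 over all libraries in the authors' deposited table, against 2168 for Toll-7. By group mean, Tl stood above 80.3% of all genes in WT and above 91.0% in dFezf1. Of the 406 genes called higher in the authors' deposited table, 223 have a 95% interval that excludes 0, and 200 of these rose further than Tl. That filter acts on the fold change being ranked and favours large ones. It therefore does not place Tl among all 406.

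18w, also known as Toll-2, was the receptor whose group means were farthest apart without a call. Its group means, as the authors give them, were 5.07 (WT) and 1.49 (dFezf1), a ratio of 3.39. The log2 fold change was -1.07 ± 0.68 (SE), with a 95% interval from -2.40 to 0.25 and an adjusted p (authors' deposited table) of 0.496. That interval reaches from a fall greater than the one estimated for Toll-7 to a slight rise, so these libraries do not settle whether 18w changed.

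Toll-6, the receptor reported to bind the spz5 protein, was listed at low levels in both groups. Its group means, as the authors give them, were 1.14 (WT) and 0.953 (dFezf1). Its log2 fold change of -0.30 ± 0.68 (SE) had a 95% interval from -1.63 to 1.04 and an adjusted p (authors' deposited table) of 0.918. The interval takes in falls greater than the estimate for 18w, and rises smaller than the estimate for Tl.

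Tollo, also known as Toll-8, was close to absent. Its mean normalized count over all libraries was 6.87 in the authors' deposited table. The authors' group mean was listed at 0 in WT and came to 0.0311 in dFezf1, so no fold between group means is given. The shrunken log2 fold change was 0.53 ± 0.58 (SE), with an adjusted p (authors' deposited table) of 0.447.

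The order of the receptors by group mean differed between the groups. In WT it was Toll-7, Tl, 18w, Toll-6 and Tollo, and in dFezf1 it was Tl, Toll-7, 18w, Toll-6 and Tollo. The deposited means carry no spread, so whether neighbours in either order differ beyond their spread was not tested. The authors' group means of the 5 receptors summed to 22.3 in WT and to 21.5 in dFezf1. Toll-7 made up 43.1% of that sum in WT and 8.52% in dFezf1. Tl made up 29.0% in WT and 79.9% in dFezf1. 18w went from 22.7% of the sum to 6.96%, and Toll-6 from 5.14% to 4.44%. The sum was thus similar in both groups while its makeup was not, a description of group means without a test. Over all genes the group means summed to 168417 (WT) and 154908 (dFezf1), so the unit has unequal totals in the groups.

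**Figure D2:**
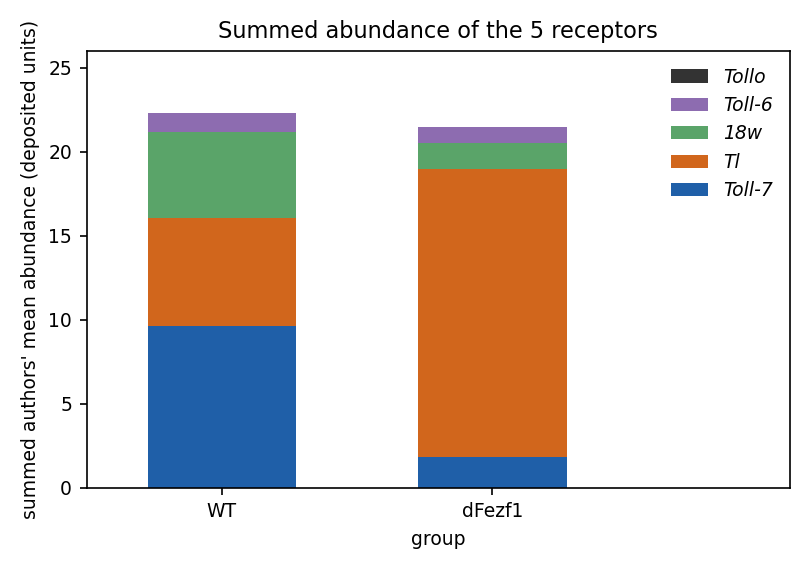
Stacked bars give the authors' group mean abundance of the 5 receptors in WT and dFezf1, in the deposited units, with no error available. The bars reach 22.3 and 21.5, and the Tl segment takes 29.0% of the first and 79.9% of the second; Tollo is too small to be seen.

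**Figure D3:**
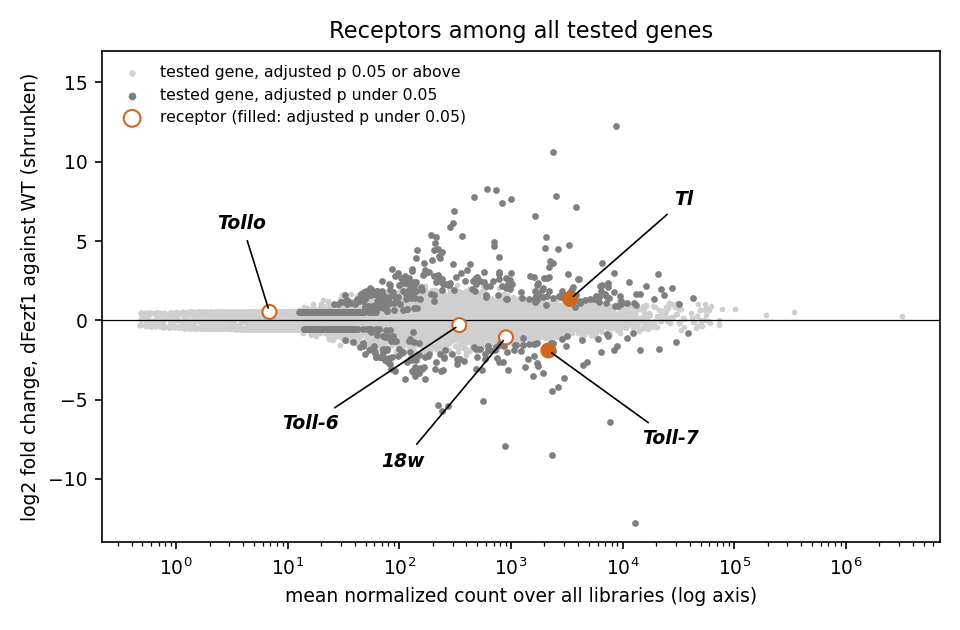
Each point is 1 tested gene of the authors' deposited table, with its mean normalized count over all libraries on a log axis and its shrunken log2 fold change of dFezf1 against WT. The receptors are in orange, filled where the adjusted p is under 0.05: Toll-7 at -1.90 and Tl at 1.35 lie at higher counts (2168 and 3404) than Toll-6 (345) and Tollo (6.87).

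The ligand genes gave no signal. NT1 and spz5 had a mean normalized count of 0 and group means of 0 in the authors' deposited table, as had 3972 of the 13727 genes. Library depth was not analysed here, and no limit is therefore put on what a count of 0 allows. The spz5 gene lies 4483 bases from Tet, which was well expressed, with an authors' group mean of 14.5 in WT, a log2 fold change of 0.68 ± 0.37 (SE) and an adjusted p (authors' deposited table) of 0.388. Its other neighbour, the potassium channel gene Shab, had a mean normalized count of 1.25.

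The receptor genes differ in structure and position in the annotation of build BDGP6. Toll-7 (FBgn0034476) spans 19826578 to 19832973 and 18w (FBgn0004364 in the authors' deposited table) spans 20111511 to 20116932, both on the plus strand of chromosome 2R. Tollo (FBgn0029114), from 15235619 to 15242832, and Toll-6 (FBgn0036494), from 15336692 to 15344315, lie on the plus strand of chromosome 3L. With the exons of all transcripts merged, these 4 genes have a single block each, of 5422 to 7624 bases. Toll-7, Tollo and 18w have 1 transcript each and so no intron. Toll-6 has 3 transcripts, which were not examined singly for introns. Tl (FBgn0262473) spans 26799041 to 26842403 on the plus strand of chromosome 3R and has 5 exon blocks totalling 5198 bases. NT1 (FBgn0261526), from 4501652 to 4508433, and spz5 (FBgn0035379), from 2883641 to 2892166, lie on the minus strand of chromosome 3L with 6 exon blocks each. No other annotated gene overlaps any of the 7, transposable elements aside, so there is no overlapping gene with which they could share reads.

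Toll-7 and 18w are 279 kb apart, and 12 genes of the authors' deposited table lie between them. Of these 3 were tested, and the authors' deposited table gives none of them an unadjusted or adjusted p under 0.05. Between Tollo and Toll-6, 93.9 kb apart, lie 3 genes, none of them tested. Of the 14 nearest protein-coding neighbours of the 7 genes, 6 were tested and 1 was called in the authors' deposited table, against 6.82% of all tested genes. This was CG42789, 14833 bases before Tl, which the authors' deposited table lists at 0 in WT and at a mean normalized count of 18.96. Its authors' group mean in dFezf1 is 2.69, and its adjusted p in the authors' deposited table is 7.37e-07. Its shrunken log2 fold change there is 0.54 ± 0.59 (SE), with a 95% interval from -0.61 to 1.69. That interval includes 0 but cannot weigh the call, as for spz6 below. Lerp, which lies 59 bases past the annotated end of Tl, had a log2 fold change of 0.06 ± 0.70 (SE) and an adjusted p (authors' deposited table) of 0.987.

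The rest of the pathway was described through 8 lists with 61 genes, of which 47 were tested. By the authors' deposited table, calls were higher for 5 and lower for 2, so that 7 of 47 were called, against 6.82% of all tested genes. Of these 7, 4 also had a 95% interval that excludes 0, as had 3.82% of all tested genes. Both lower calls and 3 of the 4 with such an interval are kekkon genes. Without the kekkon list, 4 of 41 tested genes were called in the authors' deposited table, all higher, and 1 of them, modSP, had an interval that excludes 0. The median statistic of the 47 was 0.42, against 0.05 over all tested genes.

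Other Toll receptors were nearly silent. Toll-4, Toll-9 and MstProx had a mean normalized count of 0. Tehao, also known as Toll-5, had one of 17.4 with an unadjusted p under 0.05 and an adjusted p (authors' deposited table) of 0.317. Of the other Spatzle-family ligands, spz3 was at 0. spz, which encodes the ligand of Tl, had authors' group means of 0.00225 (WT) and 0.353 (dFezf1). Its unadjusted p was under 0.05 and its adjusted p (authors' deposited table) 0.298. spz6 was called higher, with an adjusted p of 1.65e-07, at a mean normalized count of 57.3 and with WT listed at 0. Its shrunken log2 fold change of 0.54 ± 0.59 (SE) has a 95% interval from -0.61 to 1.69 in the authors' deposited table. The recognition gene PGRP-SA, also listed at 0 in WT, has 0.53 ± 0.58 (SE) but was not called (adjusted p = 0.433 in the authors' deposited table). The shrunken interval thus does not separate genes of this kind and cannot weigh the call.

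The kekkon genes encode surface proteins with leucine-rich repeats and an immunoglobulin domain, and kek6 is reported to bind a neurotrophin. Of the 6, 2 were called lower and 1 higher in the authors' deposited table, and each of the 3 intervals excluded 0. Over all tested genes the shares called were 2.49% lower and 4.33% higher. The authors' deposited table gives kek3 a log2 fold change of -1.59 ± 0.33 (SE) with an adjusted p of 3.88e-05, and group means of 21.1 (WT) and 6.36 (dFezf1). kek1 went from an authors' group mean of 32.5 to 3.74 and kek2 from 7.97 to 22.7. Other annotated genes, among them Mst33A and spag4, overlap kek2, so part of its reads may be theirs. kek6 had the greatest mean normalized count of the family, 10787, and a log2 fold change of 0.59 ± 0.43 (SE) with an adjusted p (authors' deposited table) of 0.584. kek5 and kek4 did not pass (adjusted p = 0.334 and 0.976 in the authors' deposited table), though kek5 had an unadjusted p under 0.05.

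Inside the cell, 1 of 12 tested signalling genes was called in the authors' deposited table, against 6.82% of all tested genes. dl, which encodes Dorsal, was listed at 0 in WT with an authors' group mean of 0.384 in dFezf1. Its adjusted p was 0.00687, and its log2 fold change of 1.32 ± 0.75 (SE) has a 95% interval from -0.14 to 2.79 in the authors' deposited table. Pli, which encodes Pellino, and cact, which encodes the inhibitor that holds Dorsal in the cytoplasm, were the members with the greatest mean normalized counts, 1560 and 1017. Neither passed (adjusted p = 0.849 and 0.794 in the authors' deposited table). Myd88, which encodes the adaptor of the receptors, had authors' group means of 1.33 (WT) and 2.01 (dFezf1), and the kinase gene pll had 0 and 0.0438. The second NF-kappaB gene Dif was near 0 in both groups, at 0.0123 and 0.0335. Among the 12 only Pli, Traf6 and cact had authors' group means above 4 in both genotypes.

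None of the 7 genes of the JNK kinase arm passed in the authors' deposited table, and 2 had an unadjusted p under 0.05, Jra and bsk. The latter is the JNK gene and had an adjusted p of 0.0833 and authors' group means of 24.6 (WT) and 10.9 (dFezf1). Mkk4, a kinase that activates JNK, had a mean normalized count of 1527 and an adjusted p (authors' deposited table) of 0.828. Among proteases and recognition proteins that generate active Spatzle, 2 of 10 tested genes were called higher, against 4.33% of all tested genes. modSP, which encodes a serine protease at the head of the immune cascade, had a log2 fold change of 2.38 ± 0.81 (SE) with an adjusted p (authors' deposited table) of 0.00234, and authors' group means of 0.0168 (WT) and 2.05 (dFezf1). ndl, a protease gene of embryonic patterning, was listed at 0 in WT with a mean normalized count of 57.2 and passed on p (adjusted p = 1.65e-07), while its 95% interval from -0.61 to 1.69 in the authors' deposited table includes 0. The furin genes Fur1 and Fur2, which encode general proprotein convertases, did not pass (adjusted p = 0.149 and 0.986 in the authors' deposited table). Fur1 had an unadjusted p under 0.05 and authors' group means of 5.37 (WT) and 13.0 (dFezf1). Its log2 fold change was 1.26 ± 0.51 (SE), with a 95% interval from 0.26 to 2.27.

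None of the 7 surface and cytoskeletal partners of the long Toll receptors passed either, and 1 had an unadjusted p under 0.05 in the authors' deposited table, Ten-m. This teneurin gene had a log2 fold change of -0.94 ± 0.39 (SE) and an adjusted p (authors' deposited table) of 0.162. Cirl, which encodes an adhesion G-protein-coupled receptor that pairs with Tollo in epithelia, had authors' group means of 28.3 (WT) and 31.1 (dFezf1) and an adjusted p (authors' deposited table) of 0.92. Of the 6 humoral targets of Toll signalling, 5 were at a mean normalized count of 0, and the antifungal peptide gene Drs had one of 9.81 with an adjusted p (authors' deposited table) of 0.46.

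**Figure D4:**
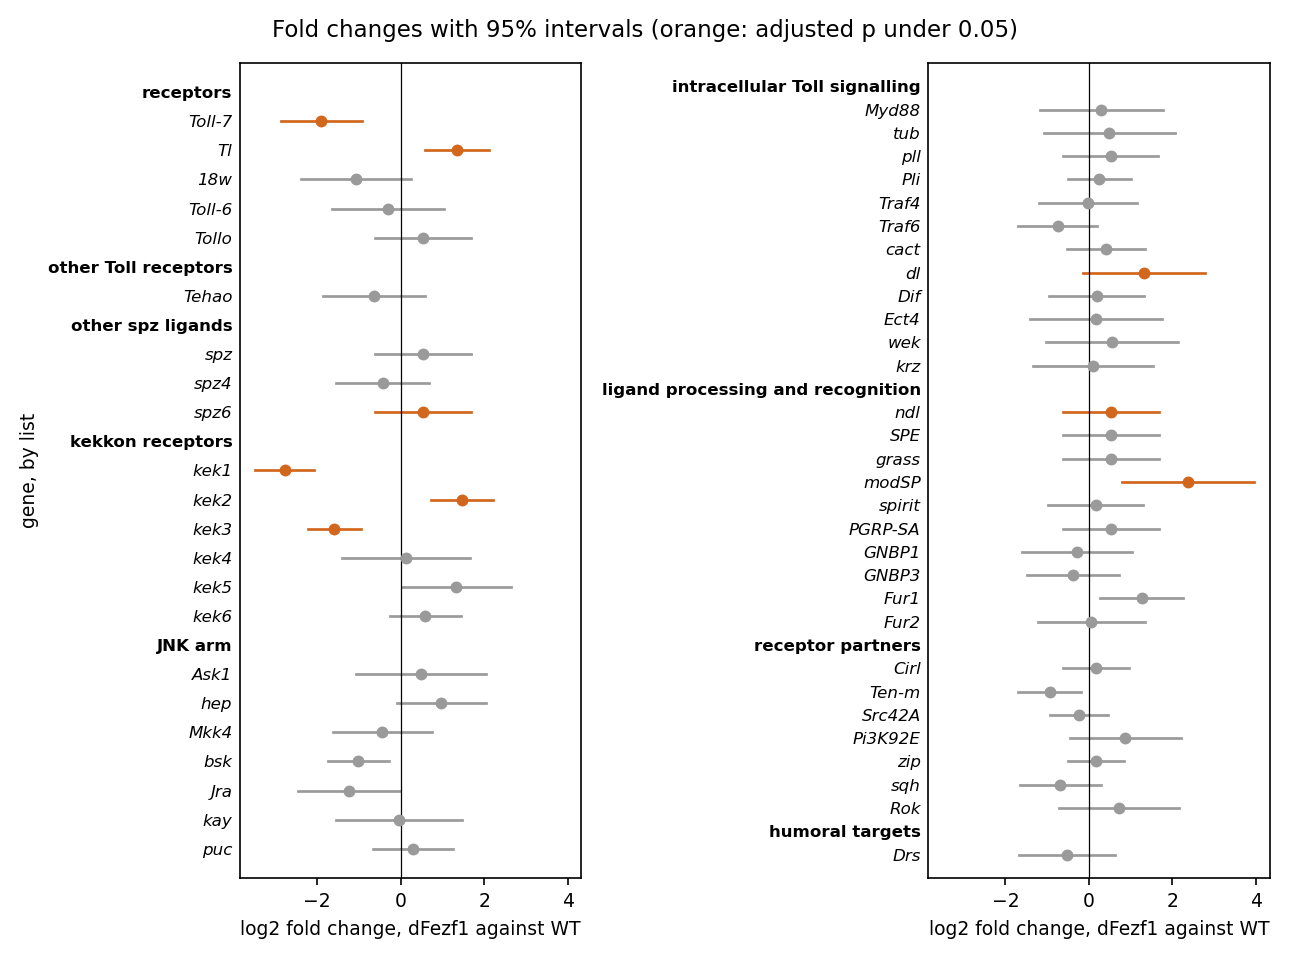
Points give the shrunken log2 fold change of dFezf1 against WT for the 5 receptors and the 47 tested genes of the pathway lists, with lines for the 95% interval from the deposited SE, in orange where the adjusted p is under 0.05. Toll-7, kek1 and kek3 lie below 0 and Tl, kek2 and modSP above it with their intervals clear of 0, while the intervals of spz6, dl and ndl include it.

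The identity of the sorted cells was read from 7 marker lists. That of L3 neurons holds 1 gene, erm. As erm is the gene mutated in dFezf1, its RNA cannot show whether these cells kept L3 identity. erm itself had authors' group means of 55.1 (WT) and 49.2 (dFezf1) and the pan-neuronal gene elav had 52.6 and 63.6, and the photoreceptor genes ninaE and trp were at 0. The authors' deposited table called 2 of 6 neuronal markers higher, Syn and Sap47, against 4.33% of all tested genes. Of the 6, 5 had an unadjusted p under 0.05 (also nSyb, brp and Syt1, each with a fold change above 0), and the group means of the 6 summed to 192 (WT) and 322 (dFezf1). Over 7 glial markers the sums were 2.33 and 8.34, with no gene called and 1 (Gs2) under an unadjusted p of 0.05, and repo was at 0.162 and 0.356. Over 6 markers of other lamina neurons the sums were 0.433 and 2.72, with svp called. Over 5 precursor markers they were 0.147 and 0.803, with gcm called (95% interval of the fold change from -0.61 to 1.69, as for spz6) and listed at 0 in WT. Sums over 5 photoreceptor markers (0.122 and 0.636) and over 7 markers of blood cells, muscle and fat body (0.187 and 1.10) were also greater in dFezf1, with no gene under an adjusted or unadjusted p of 0.05. Not all members rose. Gs2 (0.262 and 4.08) and nrv2 (0.894 and 2.55) made up most of the glial sum in dFezf1, while Eaat1 and wrapper were lower there. Among other lamina neurons svp (0.0408 and 2.02) made up most of it, with bab1, pdm3 and bsh lower. Lsp2 (0.115 and 0.892) made up most of the last sum, with Hml and Mhc lower. The precursor marker eya went from 0.108 to 0.0101. The part of these shifts in the values of Toll-7 and Tl was not tested.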

How the data were processed

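L3 neurons came from sorted optic lobe cells, and libraries were made with Smart-seq2 and Nextera chemistry, per the labels' protocols. Per the submitters' processing notes, FastQC, STAR, Salmon, DESeq2 and build BDGP6 were used, with no versions or roles stated. Per the file headers, the authors' deposited comparison holds per gene a mean normalized count (a signal over all libraries), a log2 fold change with its SE, a test statistic (a score), a p-value and an adjusted p-value. The deposited p-values match a two-sided normal test of that statistic for 9755 of 9755 genes (tolerance 0.001). The fold change is shrunken: divided by its SE it differs from the statistic by more than 1% in 3798 genes. The deposited group means are a signal in an unnamed unit. Mean normalized count divided by their average rose with exon length (Spearman's rho = 0.935 across 9266 genes, which are not independent replicates), so levels are compared between genes on this signal.

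The 12 deposited columns of values per library carry codes that match no sample label and were not used. No depth, replicate spread or left-out replicate is therefore given, and the comparison read is the authors' own, with 3 samples per group. Its p-values measure the spread between samples whose origin in separate animals the labels do not detail beyond biological replicates.

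Genes were matched by FlyBase identifier. The identifier of 18w has no entry in the gene name table, so its symbol and its equal start position were taken from the deposited table. Of 101 member and list genes with both positions, 100 had the same start in the annotation of BDGP6. The members, the pathway lists and the marker lists were chosen with earlier results of these data known, so lists are described by counts and medians, without a set test. Named genes are the 7 members, every called pathway gene, the 2 with the highest mean normalized count in each pathway list, and genes overlapping a member; other genes were added with their values in view. Intervals of 95% are normal, from the deposited SE. Alternatives changed the threshold, the genes adjusted over and the fold change. Adjustment was tested on simulated data. Python 3.11.15, pandas 2.3.3, numpy 2.4.6 and SciPy 1.17.1 were used.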

Additional observations from a re-analysis of the deposited data

How the results depend on the processing

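All the alternatives run reuse the deposited p-values, intervals or group means of the same libraries. They therefore test neither the upstream processing nor the weight of a single replicate. Toll-7 kept its call and direction under all of them, with adjusted p from 0.00303 to 0.00705. Tl kept its direction under all of them and its call under all but the threshold of 0.01, which its adjusted p of 0.0109 misses. Its adjusted p ran from 0.0109 to 0.0228. At 0.01, 1 of the 7 genes was therefore called instead of 2. 18w, Toll-6 and Tollo passed under none that could be computed. The log2 ratio of the group means, with a pseudocount of 0.1 or 1, kept the sign of all 5 fold changes, and for Toll-7 it was -2.33 and -1.91. Called pathway genes went from 7 to 4 when the adjustment covered only genes whose mean normalized count reached 100, only those above 0 in both groups, or when the 95% interval had to exclude 0. The genes lost, spz6, dl and ndl, have mean normalized counts under 100 and WT at 0, which removes them from the first 2 of these settings by construction. In the interval setting, spz6 and ndl carry the interval that shrinkage also gives to genes not called, so it cannot weigh their calls. Calls over the whole table went from 640 of 9387 tested genes to 297 of 5861, 254 of 7970 and 359 of 9387 under the same settings. Of the 640, 209 are listed at 0 in WT. Planned fits of edgeR and DESeq2 and leaving out each replicate were not run, as the library columns match no label. No paired analysis was made, as the labels pair no WT sample with a dFezf1 sample. Depth per library was not used, so what it limits is unknown.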
